A study of Mus musculus with 6 samples.

Results

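The genes described here are 35 members of the NF-kB, chemokine and cytokine system, followed in muscle stem cells after deletion of Opa1, which encodes a mitochondrial inner-membrane fusion GTPase. They were chosen by gene symbol and role, not by how they differed between genotypes, though with earlier results of these data known. They are 35 of the 49652 genes with a row in the count data. They comprise the NF-kB subunits, the IkB inhibitors with the deubiquitinase A20, the IKK kinase complex, receptors and adaptors of TNF and IL-1, cytokines, chemokines and a pair of classical target genes. All 35 symbols were found.

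Bulk RNA-seq was made from 3 OPA1-KO and 3 OPA1-WT libraries of freshly sorted hindlimb muscle stem cells of mice aged 8 to 10 weeks, with no injury. KO animals were OPA1-Pax7-CreERT2 and Cre positive. WT animals were OPA1-Pax7-CreERT2 and Cre negative. Both groups had tamoxifen by gavage for 5 days and were sampled 3 days later, so tamoxifen was shared while Cre itself differed, with no Cre-positive control. Pax7-CreERT2 drives recombination in Pax7-expressing cells, and other cells of the muscle keep the gene. The sort took cells positive for alpha-7 integrin and VCAM and negative for Sca1, CD45 and CD31. The labels do not say how many animals went into a library or that libraries came from separate animals, so p-values measure the spread between these libraries. Summed Y-linked transcripts were 0.261, 60.3 and 190 CPM in KO and 0.0707, 478 and 48.3 CPM in WT. The libraries of a genotype therefore did not all hold the same animals, and how much of their spread is technical is not known.

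In resting cells, NF-kB dimers such as RelA with p50 are held in the cytoplasm by IkB proteins. Signals through TNF or IL-1 receptors activate the IKK complex, which marks IkB for degradation and frees the dimers to enter the nucleus. Their target genes include the chemokines that draw leukocytes and the inhibitors Nfkbia and Tnfaip3, which switch the signal off again. Muscle stem cells are known to respond to such signals after injury, and to activate stress genes when they are taken out of the tissue.

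The libraries held 41410136 to 56591699 gene counts in KO and 48329905 to 56606886 in WT. Opa1 itself had 17.5, 34.4 and 27.1 CPM (gene counts scaled to a common library size) in KO and 68.2, 31.4 and 68.8 CPM in WT. The low value of the library labelled WT replicate 2 goes against its label, so fold changes of the members are given with and without it. The Opa1 log2 fold change, KO minus WT, was -1.09 (SE 0.37), or -1.38 without that library. Of 10 muscle stem cell markers, all 10 were above 20 CPM in every library. Chodl and Sdc4 led them, and Pax7 had 325, 453 and 338 CPM in KO and 350, 398 and 252 CPM in WT. Of 16 leukocyte markers, led by Cd68 and Lyz2, 11 stayed under 1 CPM in all libraries and 2 were at 0. Ptprc, which encodes the CD45 that the sort gated out, had 0 to 0.651 CPM in KO and 0 to 0.337 CPM in WT. Y-linked transcripts, led by Ddx3y and Eif2s3y, were near 0 in KO replicate 1 and WT replicate 1 and present in the other 4 libraries. Erythroid transcripts, led by Hbb-bs and Hba-a1, summed to 33.0 to 257 CPM in KO and 99.1 to 422 CPM in WT.

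In KO against WT cells, no member of the system was called. Across all genes, the quasi-likelihood test of edgeR called 0 of 18832 genes at an adjusted p under 0.05 (0%), and all 30 members that passed the filter on low counts had an adjusted p of 0.99998. At an unadjusted p under 0.05 the counts were 0 of 30 members, against 2.09% of all genes (1.08% higher in KO and 1% lower). The 3 KO libraries and the 3 WT libraries overlapped for every tested member, whereas they stood apart for 6.55% of all genes (3.43% with KO above and 3.12% with KO below). The log2 fold changes of the 30 members ran from -1.28 to 1.40, with 18 positive and 12 negative. Their median was 0.18, beside 0.01 over all genes tested, and without the library labelled WT replicate 2 it was 0.15, with 17 positive and 13 negative. Without WT replicate 3 the median was 0.04, with 16 positive and 15 negative among 31 members tested. DESeq2 called 0 of the members and 0.106% of all genes, and limma voom called 0 members and 0%. A p that misses the threshold does not show that the genotypes were alike, and the intervals below give the sizes the data allow.

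Without the library labelled WT replicate 2, the picture within the list changed although no gene passed adjustment. Of the 30 members then tested, 5 had an unadjusted p under 0.05, and all 5 were higher in KO, against 2.03% of all genes higher and 1.05% lower. They were Nfkbia, Nfkbiz, Cxcl1, Ccl2 and Ccl11. In each of the 5, the library left out was the highest of the WT libraries, so leaving it out raised KO minus WT. Members that vary together across libraries are not independent, so a count of members beside a share of all genes is no test. For 8 members, KO libraries all lay above both remaining WT libraries, against 8.41% of all genes, and for 0 members they lay below, against 7.2%. By edgeR the adjusted p of each was then 0.9999. With any of the other libraries left out except WT replicate 1, 0 members had an unadjusted edgeR p under 0.05. Without WT replicate 1 there was 1, Nfkb1, lower in KO. WT replicates 1 and 3, which remain without WT replicate 2, had 18500 and 7610 CPM summed over 21 immediate early genes. The KO libraries had 15300, 43900 and 39900 CPM, and the part of these genes in the differences was not tested.

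**Figure D1:**
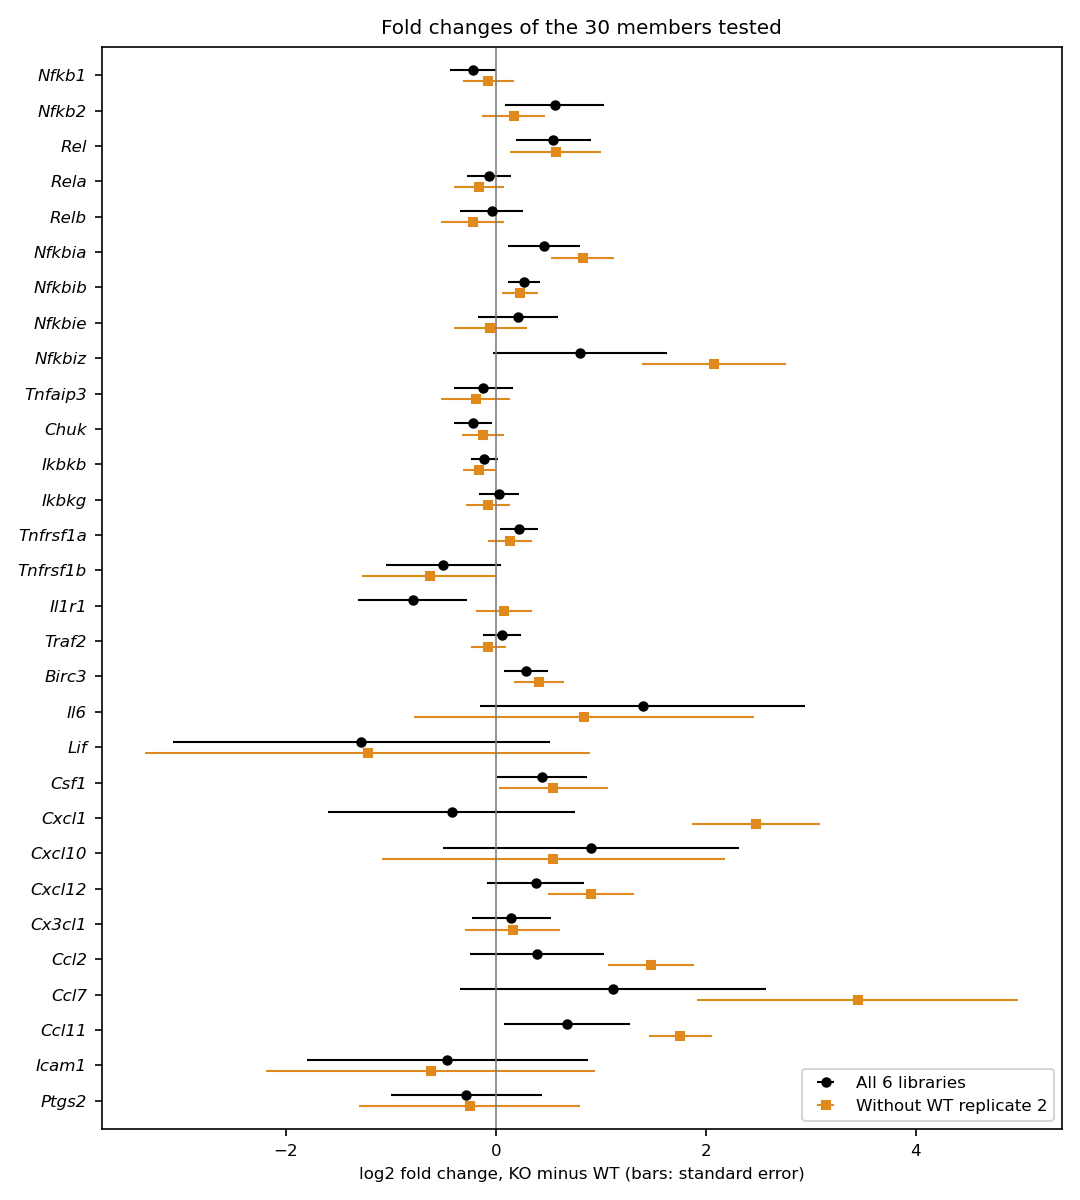
Log2 fold change, KO minus WT, of each of the 30 tested members from the edgeR quasi-likelihood fit, on all 6 libraries (black circles) and without the library labelled WT replicate 2 (orange squares). Bars are standard errors. Cxcl1 stands at -0.42 on all libraries and at 2.48 without that library, the widest move of the list, while the 3 IKK genes stay between -0.22 and 0.03.

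The members differ in the sequence just before their start sites. RefSeq promoter windows (GRCm38.p6, 250 bases before to 50 bases after the start) matched 27 of the 35 members, with 34 windows. The kB consensus, the binding motif of NF-kB, with any base allowed at its middle pair of positions, was searched on both strands and lay in 14 of the 34 windows (41.2%), against 8.46% of all 32851 windows. Those windows belong to 12 members: Csf1, Cxcl1, Cxcl10, Cxcl2, Il1r1, Il6, Lif, Nfkb2, Nfkbia, Nfkbie, Rel and Tnfaip3. The motif TGANTCA, bound by AP-1 factors such as Fos and Jun, lay in 9 windows of 7 members (26.5%, against 7.81% of all), and TATAAA in 6 (17.6%, against 13.6% of all). Windows of one gene can overlap and are not independent, and a match describes letters, not binding. The list was chosen by role and holds known NF-kB targets, so its share of kB matches is no test of the members.

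The stretch before the start is printed, 5′ to 3′ on the gene's strand, for Nfkbia as the most abundant member, for Cxcl1 with its far less abundant neighbour Cxcl2, for Il6 and Cxcl10 as classical targets at low level, and for Cxcl12 as an abundant chemokine without a match. Capitals mark kB consensus matches and, in Cxcl10, also the TGANTCA match.
Nfkbia, chr12:55492648-55492797, minus strand: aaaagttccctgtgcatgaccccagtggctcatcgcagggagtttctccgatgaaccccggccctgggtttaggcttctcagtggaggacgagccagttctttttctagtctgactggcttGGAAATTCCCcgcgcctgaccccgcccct
Cxcl1, chr5:90891095-90891240, plus strand: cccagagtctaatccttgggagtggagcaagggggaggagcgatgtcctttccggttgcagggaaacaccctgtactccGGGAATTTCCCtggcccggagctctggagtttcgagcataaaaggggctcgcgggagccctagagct
Cxcl2, chr5:90903749-90903870, plus strand: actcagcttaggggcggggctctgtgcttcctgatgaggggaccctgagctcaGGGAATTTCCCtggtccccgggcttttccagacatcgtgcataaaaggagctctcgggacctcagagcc
Il6, chr5:30012964-30013113, plus strand: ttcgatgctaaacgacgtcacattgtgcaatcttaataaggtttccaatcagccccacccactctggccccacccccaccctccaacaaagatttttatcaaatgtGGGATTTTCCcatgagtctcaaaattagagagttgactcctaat
Cxcl10, chr5:92348890-92349039, minus strand: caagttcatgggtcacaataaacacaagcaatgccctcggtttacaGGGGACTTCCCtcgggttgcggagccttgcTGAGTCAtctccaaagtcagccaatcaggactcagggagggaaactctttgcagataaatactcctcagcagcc
Cxcl12, chr6:117168385-117168534, plus strand: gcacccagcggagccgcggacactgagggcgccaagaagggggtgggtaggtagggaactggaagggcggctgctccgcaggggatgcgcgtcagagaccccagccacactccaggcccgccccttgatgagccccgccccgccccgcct
The windows of Cxcl1 and Cxcl2 carry the same kB letters, beginning 67 and 69 bases before the GENCODE start, where the printed stretches end. The RefSeq starts lie farther on, and from them the distances are 71 and 97 bases. The overlapping match on the other strand is part of the same run. In Nfkbia the match begins 29 bases before the start and in Il6 44 bases before it. In Cxcl10 the printed stretch has its kB match 104 bases and its TGANTCA match 74 bases before the start. A further kB match of Cxcl10 begins 159 bases before the start and runs beyond that stretch, and the TGANTCA match of the Il6 window also lies beyond the printed stretch. Cxcl1 and Cxcl2, with the same kB letters, had very different levels: 73.3 and 0.119 RPKM over both genotypes.

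Compared per length of transcript (RPKM, over both genotypes), Nfkbia was the most abundant member at 281 RPKM, followed by Cxcl1 at 73.3, Rela at 30.2, Nfkbib at 26.8, Tnfrsf1a at 24.8, Ccl11 at 22.2, Traf2 at 16.7 and Nfkbiz at 15.1 RPKM. At the other end were the inducers and several targets. Tnf, the cytokine that gives the pathway its classical trigger, had 0, 0 and 1 counts in KO and 0, 1 and 0 counts in WT. Il1b, an IL-1 ligand, had 0 counts in all 6 libraries. Il1a, another IL-1 ligand and not a member, had 0, 0 and 0 counts in KO and 1, 0 and 0 counts in WT. A count of 0 allows up to 0.0528 to 0.0723 CPM per library, counting error only. The libraries therefore contained the receptors and the intracellular machinery with almost no transcript of these ligands.

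**Figure D2:**
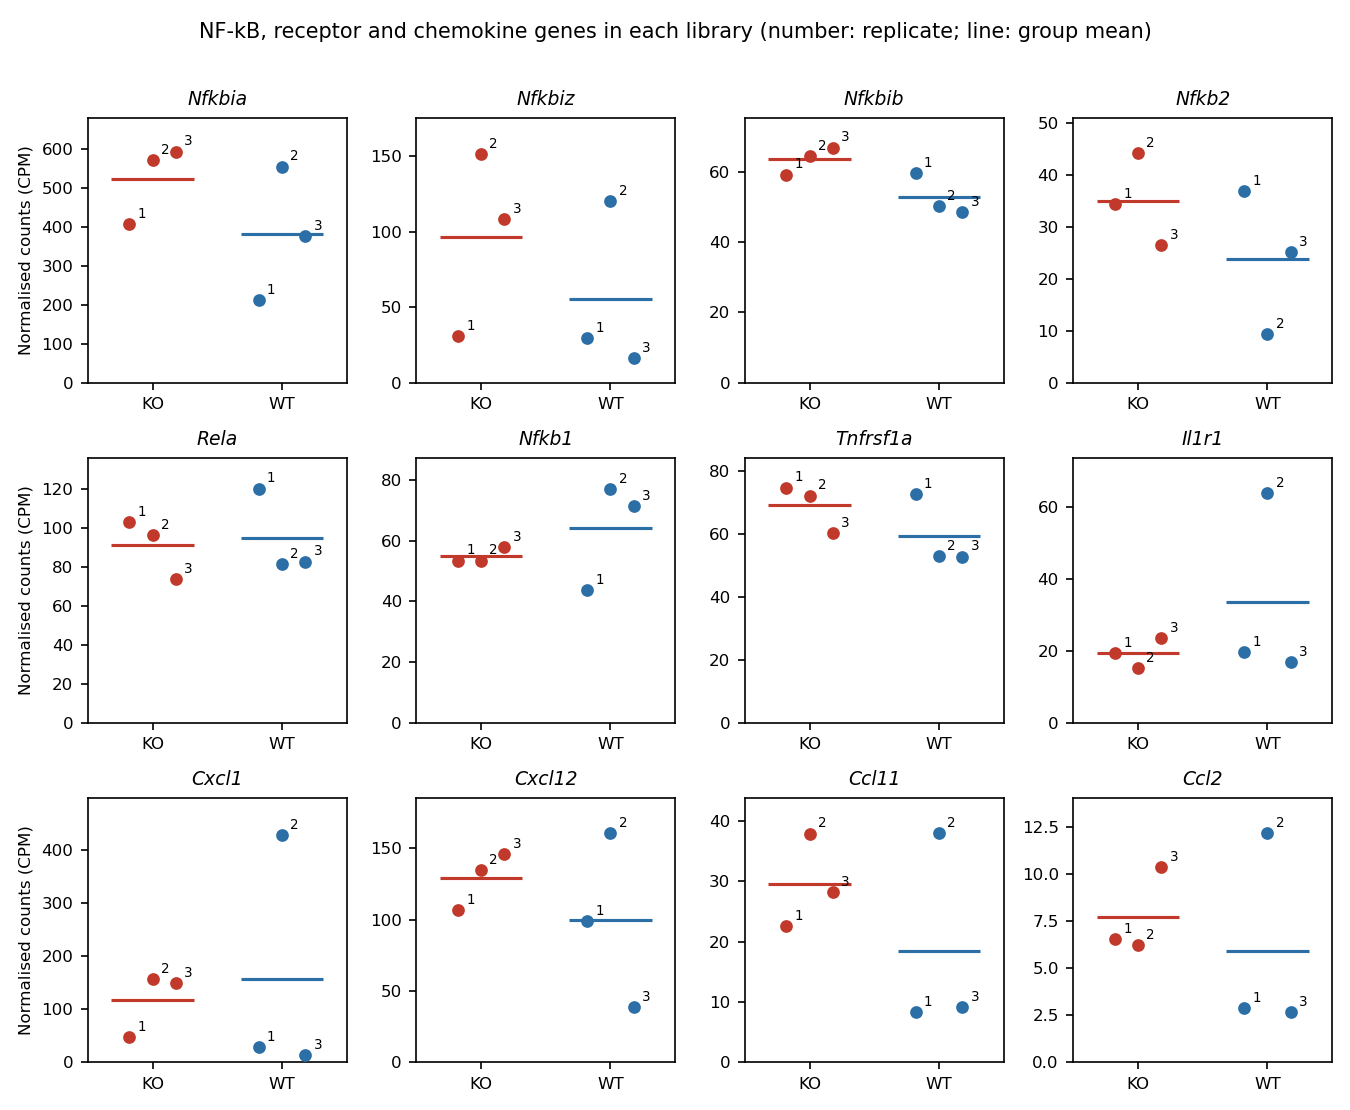
CPM after TMM scaling (linear axes from 0) of 12 members, KO left of WT, with 1 numbered point per library and a line at the group mean. Points of the 2 genotypes overlap in all 12 panels, and WT point 2 lies near or above the KO points for Cxcl1, Cxcl12, Ccl11, Ccl2 and Nfkbiz.

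Among the NF-kB subunits, Rela and Nfkb1 make the canonical dimer. Rela had 103, 96.3 and 73.5 CPM in KO and 120, 81.3 and 82.6 CPM in WT. The groups overlapped throughout, and Rela differed by -0.06 on the log2 scale (SE 0.21, 95% interval -0.56 to 0.44). Leaving out 1 library at a time moved it between -0.16 and 0.15, and it was -0.16 without the library labelled WT replicate 2.

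Nfkb1, the p105 precursor of p50, had 53.5, 53.5 and 58.0 CPM in KO and 43.7, 77.1 and 71.6 CPM in WT. The 3 KO libraries were close together and lay between the WT values (log2 fold change -0.22, SE 0.22). Without WT replicate 1, the lowest of the 6, the log2 fold change was -0.43 at an unadjusted p of 0.0233 and an adjusted p of 0.99957 by edgeR, and without the library labelled WT replicate 2 it was -0.07.

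Nfkb2, the p100 precursor of the alternative pathway, had 34.3, 44.1 and 26.5 CPM in KO and 36.9, 9.29 and 25.1 CPM in WT. The low value of the library labelled WT replicate 2 set much of the difference: the log2 fold change was 0.56 (SE 0.47) with it and 0.17 without it. Nfkb2 exons overlap those of genes on the other strand, so some of its reads cannot be assigned with certainty.

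Rel, the c-Rel subunit best known from lymphocytes, had 5.90, 5.18 and 6.53 CPM in KO and 5.21, 4.13 and 2.69 CPM in WT. Its lowest KO library lay just below the highest WT library, and the KO minus WT difference was 0.55 on the log2 scale (SE 0.36, 95% interval -0.30 to 1.40) and 0.57 without the library labelled WT replicate 2. Relb, the partner of p52, had 8.70 to 12.9 CPM in KO and 8.27 to 14.3 CPM in WT, at a log2 fold change of -0.04 and of -0.22 without that library. Over the 5 subunits the median was -0.04, with 2 positive and 3 negative, and -0.07 without it.

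The inhibitors include the most abundant member. Nfkbia, which encodes IkBa and is itself an NF-kB target, had 406, 570 and 592 CPM in KO and 212, 554 and 376 CPM in WT. WT replicate 1 was the lowest and 2 KO libraries the highest, but the groups overlapped, at a log2 fold change of 0.46 (SE 0.34, 95% interval -0.35 to 1.27). Without the library labelled WT replicate 2, every KO library exceeded both remaining WT libraries, and it was 0.83 (SE 0.30) with an unadjusted p of 0.034 and an adjusted p of 0.9999 by edgeR.

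Nfkbib, the IkBb gene, had the smallest p of all members in the 6-library fit. It had 59.3, 64.5 and 67.0 CPM in KO and 59.6, 50.3 and 48.6 CPM in WT. WT replicate 1 lay just above the lowest KO library, and the other values did not overlap. KO minus WT was 0.27 on the log2 scale (SE 0.15, 95% interval -0.07 to 0.61, unadjusted p 0.107, edgeR) and 0.23 without the library labelled WT replicate 2. Its exons overlap those of Sirt2 and Ccer2 on the other strand.

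Nfkbiz, a nuclear IkB protein that helps induce a second wave of targets such as Il6, had 31.0, 151 and 108 CPM in KO and 29.4, 120 and 16 CPM in WT, a 9.42-fold range between libraries. KO replicates 2 and 3 and the library labelled WT replicate 2 were high, and the other 3 libraries were low whatever their genotype. The log2 fold change was 0.80 (SE 0.83) over all libraries and 2.08 (SE 0.69) without the library labelled WT replicate 2, with an unadjusted p of 0.0231 and an adjusted p of 0.9999 by edgeR.

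Nfkbie, the IkBe gene, had 6.46 to 9.72 CPM in KO and 4.09 to 8.84 CPM in WT, at a log2 fold change of 0.21, or -0.05 without the library labelled WT replicate 2. Tnfaip3, which encodes A20 and removes activating ubiquitin chains, had 23.6 to 42.5 CPM in KO and 29.2 to 47.4 CPM in WT, at -0.12 and, without that library, -0.19 on the log2 scale. The 5 inhibitors had a median log2 fold change of 0.27, with 4 positive and 1 negative, and of 0.23 without the library labelled WT replicate 2.

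The IKK complex was steady. Chuk, the IKKa kinase, had 53.1, 67.5 and 68.8 CPM in KO and 59.6, 83.6 and 77.5 CPM in WT. Ikbkb, the IKKb kinase that acts on IkBa, had 92.1, 103 and 109 CPM in KO and 106, 102 and 119 CPM in WT. Both sets of values overlapped, with log2 fold changes of -0.22 (SE 0.18) for Chuk and -0.11 (SE 0.13, 95% interval -0.42 to 0.20) for Ikbkb. They were -0.12 and -0.16 without the library labelled WT replicate 2. Ikbkg, the regulatory subunit NEMO, had 45.4 to 64.4 CPM in KO and 44.4 to 56.8 CPM in WT, and its exons overlap those of G6pdx on the other strand. The log2 fold changes of all 3 subunits lay between -0.22 and 0.03, and between -0.16 and -0.07 without the library labelled WT replicate 2.

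Of the receptors, Tnfrsf1a, the broadly expressed TNF receptor, had 74.6, 72.1 and 60.2 CPM in KO and 72.5, 52.8 and 52.7 CPM in WT. WT replicate 1 lay among the KO libraries, and the estimate was 0.22 on the log2 scale (SE 0.18, 95% interval -0.21 to 0.65), or 0.14 without the library labelled WT replicate 2. Tnfrsf1b, the second TNF receptor, had 4.82, 11.0 and 8.79 CPM in KO and 20.3, 9.42 and 5.09 CPM in WT. WT replicate 1 alone was high: the log2 fold change was -0.50 (SE 0.55) with it and 0.18 without it, and -0.63 without the library labelled WT replicate 2.

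Il1r1, the signalling receptor of IL-1, had 19.3, 15.1 and 23.6 CPM in KO and 19.6, 64.0 and 16.9 CPM in WT. The library labelled WT replicate 2 stood above the other 5, and the log2 fold change was -0.79 (SE 0.52) with it and 0.08 without it. Traf2, an adaptor of the TNF receptors, had 99.6, 76.4 and 84.1 CPM in KO and 92.2, 67.5 and 90.4 CPM in WT. Its groups overlapped fully, at a log2 fold change of 0.06 (SE 0.18), and leaving out 1 library at a time moved it between -0.07 and 0.14, with -0.07 for the library labelled WT replicate 2 left out.

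Birc3, the ubiquitin ligase cIAP2 that works with Traf2, had 24.3, 22.9 and 29.3 CPM in KO and 16.9, 24.4 and 21.5 CPM in WT. The library labelled WT replicate 2 was the one WT library inside the KO range. The log2 fold change was 0.29 (SE 0.21), and 0.41 without that library. Traf1, an inducible adaptor, failed the filter with 29, 1 and 0 counts in KO and 8, 56 and 0 counts in WT.

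Cytokine transcripts were scarce apart from Csf1, the growth factor of macrophages. Csf1 had 24.6, 21.7 and 25.2 CPM in KO and 25.3, 20.3 and 7.14 CPM in WT. WT replicate 3 alone was low, and the log2 fold change was 0.44 (SE 0.43) with it and 0.06 without it, or 0.55 without the library labelled WT replicate 2. Il6, a cytokine known to be induced in activated muscle cells, had 2, 21 and 12 counts in KO and 1, 0 and 14 counts in WT. At that depth each genotype held a library near 0 and a library above 10 counts, and the log2 fold change of 1.40 (SE 1.55) was not distinguishable from 0. It was 0.84 (SE 1.62) without the library labelled WT replicate 2, and ranged from 0.42 without KO replicate 2 to 4.44 without WT replicate 3. Lif, a cytokine of the Il6 family, had 0 to 0.803 CPM in KO and 0 to 2.30 CPM in WT, at -1.28 (SE 1.80) and, without the library labelled WT replicate 2, -1.22 on the log2 scale.

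**Figure D3:**
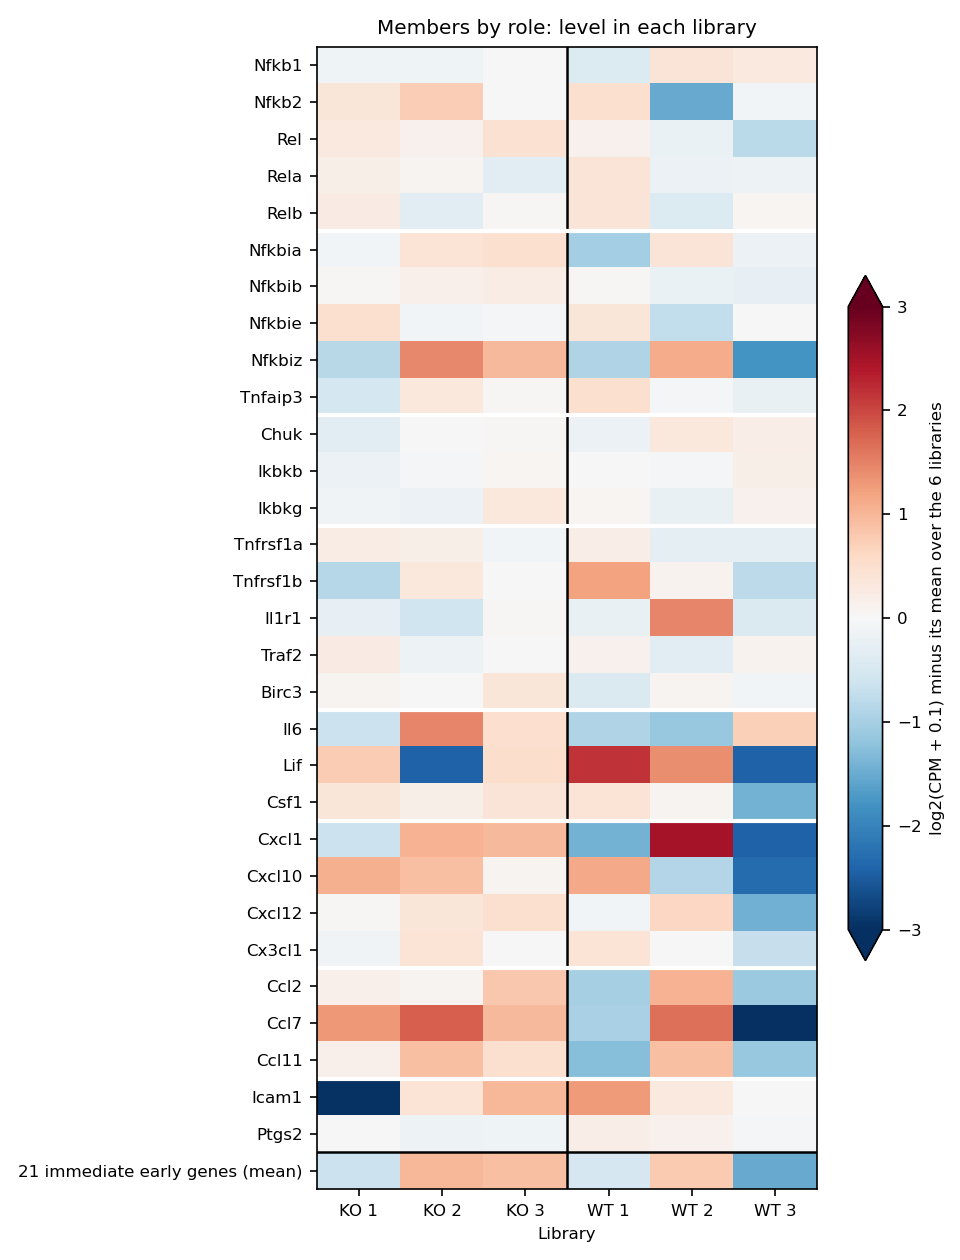
Log2 of CPM plus 0.1 of each tested member minus its mean over the 6 libraries, with members grouped by role, KO libraries left of WT libraries, and the mean of 21 immediate early genes in the lowest row. Red is above and blue below the member mean. The rows of Cxcl1, Nfkbiz and the immediate early genes are high in KO replicates 2 and 3 and in the library labelled WT replicate 2, while the IKK rows are nearly even.

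Several chemokines differed widely between libraries. Cxcl5, Cxcl1 and Cxcl2, which attract neutrophils through the receptor Cxcr2, lie in one cluster on the plus strand of GRCm38, at chr5:90759360-90761624, chr5:90891241-90893115 and chr5:90903871-90905938 in GENCODE M21. Cxcl1 had 48.4, 157 and 149 CPM in KO and 28.2, 429 and 14.0 CPM in WT, a 30.7-fold range. The library labelled WT replicate 2 was the highest and the other WT libraries were the lowest. On the log2 scale KO minus WT was -0.42 (SE 1.18, 95% interval -3.22 to 2.39) over all 6 libraries and 2.48 (SE 0.61) without that library, with an unadjusted p of 0.00637 and an adjusted p of 0.9999 by edgeR. Its direction also turned in other fits on all libraries, to 0.96 with limma voom and 0.24 with a Y-linked covariate, and it turned positive with a replicate block too.

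DESeq2 gave Cxcl1 no p, since the library labelled WT replicate 2 had a Cook's distance, a measure of the weight of 1 library, of 28.1 against a limit of 18. The neighbours of Cxcl1 were nearly silent. Cxcl2 had 0, 0 and 0 counts in KO and 0, 71 and 0 counts in WT, so all of its counts came from the library labelled WT replicate 2. Cxcl5 had 0, 0 and 1 counts in KO and 0, 0 and 0 counts in WT.

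Cxcl12, the ligand of Cxcr4 and a constitutive chemokine of stem cell niches, had 107, 135 and 146 CPM in KO and 99.3, 161 and 38.6 CPM in WT. WT replicate 3 was low and the library labelled WT replicate 2 was the highest of the 6. KO minus WT was 0.38 on the log2 scale (SE 0.46, 95% interval -0.70 to 1.46). It rounded to -0.0 without WT replicate 3 and was 0.91 (SE 0.41) without the library labelled WT replicate 2. Cxcl10, an interferon-induced chemokine, had 0.423 to 0.944 CPM in KO and 0 to 0.990 CPM in WT, and its exons overlap those of Art3 on the other strand. Its log2 fold change was 0.91 (SE 1.41), and 0.55 without the library labelled WT replicate 2. Cx3cl1, the membrane-bound ligand of Cx3cr1, had 5.48 to 7.91 CPM in KO and 3.63 to 7.92 CPM in WT, at 0.15 (SE 0.38) and, without that library, 0.16 on the log2 scale.

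The CC chemokines Ccl2, Ccl7 and Ccl11 lie side by side on the plus strand at chr11:82035571-82037453, chr11:82045712-82047525 and chr11:82057823-82062955. Ccl2 and Ccl7 attract monocytes, and Ccl11 attracts eosinophils. Ccl11 had 22.6, 37.9 and 28.2 CPM in KO and 8.29, 38.0 and 9.14 CPM in WT. Ccl2 had 6.57, 6.24 and 10.4 CPM in KO and 2.88, 12.2 and 2.66 CPM in WT. Ccl7 had 6.45, 9.19 and 5.16 CPM in KO and 1.26, 8.33 and 0 CPM in WT. For all 3 genes, WT replicates 1 and 3 were lowest, while the library labelled WT replicate 2 lay within or above the KO range.

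Over all libraries the log2 fold changes were 0.68 (SE 0.60) for Ccl11, 0.39 (SE 0.64) for Ccl2 and 1.12 (SE 1.46) for Ccl7. Without the library labelled WT replicate 2 they were 1.76 (SE 0.30), 1.48 (SE 0.41) and 3.45 (SE 1.53). The unadjusted edgeR p-values were then 0.00103 for Ccl11, 0.0107 for Ccl2 and 0.0649 for Ccl7, each with an adjusted p of 0.9999.

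The adhesion and prostaglandin targets were low. Icam1, a ligand of leukocyte integrins, had 0 to 1.46 CPM in KO and 0.673 to 1.79 CPM in WT, with 0 counts in KO replicate 1 and 36 to 101 in the other 5 libraries. Ptgs2, which encodes the inducible cyclooxygenase, had 0.169 to 0.201 CPM in KO and 0.187 to 0.247 CPM in WT. The groups overlapped for both, at log2 fold changes of -0.46 (SE 1.34) for Icam1 and -0.28 (SE 0.72) for Ptgs2, and -0.62 and -0.25 without the library labelled WT replicate 2.

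Members differed in how far they varied within a genotype. The SD of log2 CPM around the genotype means was 1.96 for Cxcl1, 1.35 for Nfkbiz, 0.91 for Ccl11, 0.76 for Cxcl12 and 0.54 for Nfkbia. Genes of like mean expression, within 0.5 log2 CPM, had medians of 0.22, 0.24, 0.32, 0.21 and 0.21 in the same order. Of the signalling genes, some stood at or below their peers and some well above. Ikbkb had 0.12 (peers 0.21), Nfkbib 0.13 (peers 0.24) and Traf2 0.22 (peers 0.22), while Rela had 0.29 (peers 0.21), Nfkb1 0.32 (peers 0.23), Tnfaip3 0.40 (peers 0.28), Nfkb2 0.77 (peers 0.30), Il1r1 0.78 (peers 0.31) and Tnfrsf1b 0.83 (peers 0.45). Over the list, 17 of the 30 tested members were above the median of like genes.

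By role, the median SD was 1.48 for cytokines, 1.24 for CXC and CX3C chemokines, 1.12 for adhesion and prostaglandin targets, 0.91 for CC chemokines, 0.46 for the inhibitors, 0.35 for the subunits, and 0.23 each for the IKK complex and for receptors and adaptors. Roles with high values include genes at low counts, such as Lif at 2.87 (peers 1.14) and Icam1 at 2.09 (peers 0.92). For some members, part of this spread rested on 1 library. Without the library labelled WT replicate 2, the SD was 0.88 for Cxcl1 (peers 0.24), 1.04 for Nfkbiz (peers 0.25), 0.59 for Cxcl12 (peers 0.21) and 0.42 for Nfkbia (peers 0.21), still above their peers. It was 0.31 for Ccl11 (peers 0.33), 0.33 for Ccl2 (peers 0.51) and 0.28 for Il1r1 (peers 0.33), below them. For other members the SD rose, to 3.15 for Lif, 2.41 for Icam1, 1.98 for Cxcl10 (from 1.72) and 0.95 for Tnfrsf1b. The median was then 0.33 for CC chemokines and 0.74 for CXC and CX3C chemokines. It was 1.51 for cytokines and 1.29 for adhesion and prostaglandin targets, and 15 of the 30 members were above their peers.

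**Figure D4:**
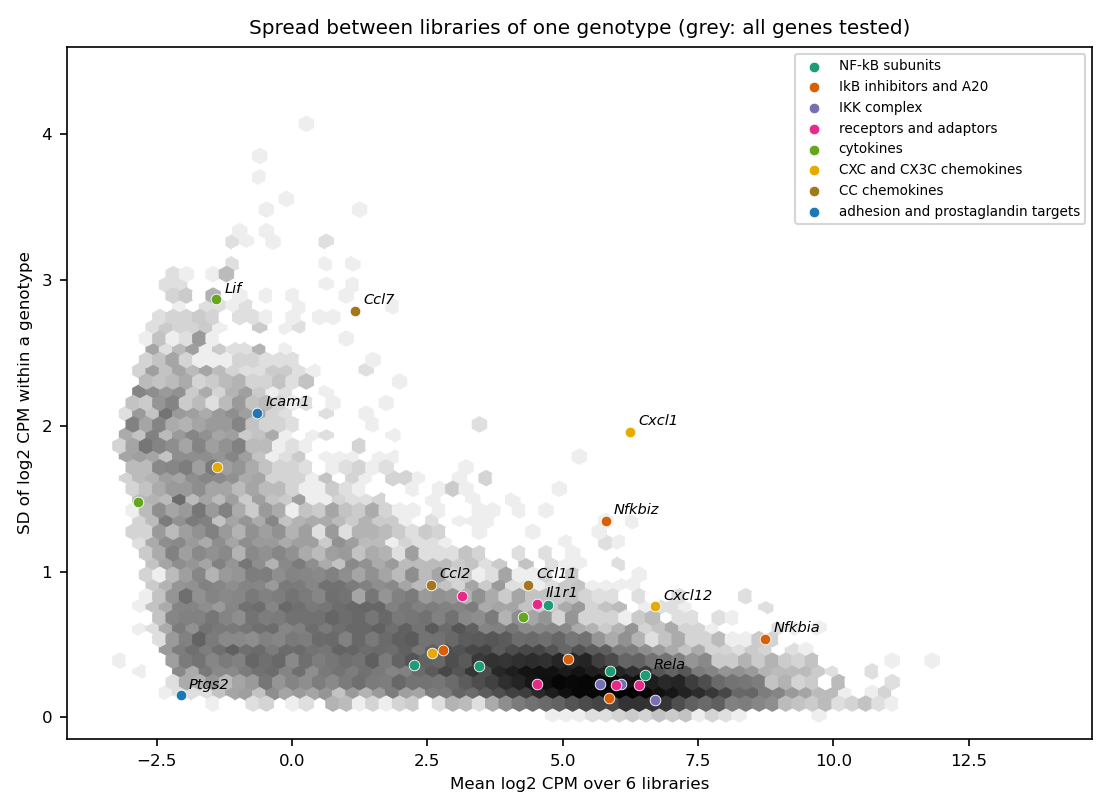
SD of log2 CPM between libraries of one genotype against mean log2 CPM over the 6 libraries, for all genes tested (grey, darker where genes are denser) and for the members (coloured by role). Cxcl1 at 1.96 and Nfkbiz at 1.35 lie far above genes of their level, and the IKK genes lie within the grey band.

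Immediate early genes moved with Nfkbiz and Cxcl1. The summed level of 21 such genes, led by Jun and Fos and known to be induced during tissue dissociation, was 15300, 43900 and 39900 CPM in KO and 18500, 35900 and 7610 CPM in WT. Fos alone had 2970, 8190 and 7990 CPM in KO and 3440, 7270 and 1370 CPM in WT. KO replicates 2 and 3 and the library labelled WT replicate 2 were the high ones for this list, for Nfkbiz and for Cxcl1. The same 3 libraries were the highest for Y-linked transcripts, which summed to 0.261, 60.3 and 190 CPM in KO and 0.0707, 478 and 48.3 CPM in WT. With the Y-linked level as a covariate, the log2 fold change was 0.24 for Cxcl1 and 0.80 for Nfkbiz. The part of immediate early genes in the values of Nfkbiz and the chemokines was not tested. Cell cycle genes, led by Mcm3 and Rrm2, ran the other way at 782, 91.9 and 71.0 CPM in KO and 359, 65.6 and 332 CPM in WT, and their part was not tested either.

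Markers of other cells that make chemokines differed between libraries too. Summed leukocyte markers were 6.53, 17.0 and 23.3 CPM in KO and 11.1, 18.9 and 6.90 CPM in WT. The 12 endothelial markers, led by Tek and Ptprb, summed to 120, 154 and 236 CPM in KO and 213, 239 and 119 CPM in WT. The 11 fibro-adipogenic markers, nearly all Gsn and Dpt, summed to 5280, 5680 and 5220 CPM in KO and 4910, 4870 and 3300 CPM in WT. Their defining marker Pdgfra stayed at 0.0241 to 2.55 CPM in KO and 0.230 to 2.56 CPM in WT.

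Smooth muscle and pericyte markers, led by Des and Acta2, summed to 1240 to 1710 CPM in KO and 1090 to 1960 CPM in WT. Mature fibre markers, led by Acta1 and Tnnt3, summed to 161 to 386 CPM in KO and 144 to 534 CPM in WT. The part of any of these cells in the chemokine values was not tested. In bulk libraries, fewer cells of a type and less RNA per cell cannot be told apart.

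Other genes of the system, 90 in 5 lists by role, were read from the same fit. Of these, 67 were tested and 0 were called. There were 41 positive and 26 negative log2 fold changes, with a median of 0.10, and 38 positive and 30 negative with a median of 0.04 among the 68 tested without the library labelled WT replicate 2, where 4 genes had an unadjusted p under 0.05, all higher in KO, against 2.03% of all genes. In all 6 libraries, at an unadjusted p under 0.05, there was 1 gene, Rnf31, the catalytic subunit of the ligase that attaches linear ubiquitin chains. Rnf31 had 13.0, 17.5 and 19.8 CPM in KO and 9.99, 12 and 9.43 CPM in WT. All KO libraries were above all WT libraries, with a log2 fold change of 0.68 (SE 0.25) at an unadjusted p of 0.031 and an adjusted p of 0.99998 by edgeR. Leaving out 1 library at a time kept it between 0.54 and 0.83, with 0.79 for the library labelled WT replicate 2 left out.

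The KO and WT libraries were apart for 3 of these 67 genes, Rnf31, Clcf1 and Ackr4, beside 6.55% of all genes. Clcf1, a cytokine of the Il6 family, averaged 5.61 ± 1.15 CPM in KO and 2.94 ± 1.25 CPM in WT (SD, n = 3 each). Ackr4, a scavenging chemokine receptor, averaged 1.10 ± 0.515 CPM in KO and 0.337 ± 0.316 CPM in WT (SD, n = 3 each). Without the library labelled WT replicate 2, log2 fold changes were 1.17 (SE 0.51) for Clcf1 and 1.49 (SE 1.04) for Ackr4, against 0.93 and 1.70 with it. None of the 3 genes passed adjustment.

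Among other IkB proteins, deubiquitinases and inhibitors, 8 of 11 tested genes were positive and 3 negative. Zc3h12a, which encodes the RNase Regnase-1 that degrades cytokine mRNAs, averaged 12.7 ± 3.48 CPM in KO and 6.06 ± 4.18 CPM in WT (SD, n = 3 each), at a log2 fold change of 1.07 (SE 0.61). Log2 fold changes were 0.29 (SE 0.22) for Tnip1, a partner of A20, 0.26 (SE 0.18) for the deubiquitinase Otud7b and -0.14 (SE 0.13) for the A20 adaptor Tax1bp1. None of these passed the test.

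Of the 24 other kinases, adaptors and ligases, 15 were positive and 9 negative. Birc2, the ligase cIAP1, averaged 73.5 ± 14.5 CPM in KO and 87.8 ± 9.38 CPM in WT (SD, n = 3 each), and the ubiquitin-conjugating pair Ube2n and Ube2v1 had log2 fold changes of -0.02 and 0.06. Of 15 other receptors, 8 were positive and 7 negative, with log2 fold changes of 0.35 (SE 0.21) for Il1rap, the IL-1 co-receptor, 0.18 (SE 0.21) for Lifr, the Lif receptor, and 0.10 (SE 0.17) for Ifngr1, an interferon gamma receptor chain.

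Of 12 other cytokines tested, 8 were positive and 4 negative. Mif, the macrophage migration inhibitory factor, averaged 130 ± 22.2 CPM in KO and 125 ± 28.2 CPM in WT (SD, n = 3 each). Tnfsf12, the TNF-family cytokine TWEAK, differed by 0.29 (SE 0.27) and Ltb, a lymphotoxin subunit, by 1.51 (SE 0.88) on the log2 scale. Of the 15 other chemokines, 10 failed the filter, and the remaining 5 had 2 positive and 3 negative log2 fold changes. Cxcl16 had 0.33, Cxcl14 0.05 and Ccl19 -0.54, the last uncertain because near-identical gene copies share its reads. Without the library labelled WT replicate 2, values that changed sign were 0.07 for Ccl19, -0.27 for Cxcl14 and -0.04 for Ifngr1, and Il1rap, Lifr, Tnfsf12 and Cxcl16 stood at 0.55, 0.41, 0.56 and 0.76.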

How the data were processed

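RNA-seq was measured in 3 KO and 3 WT libraries. The authors deposited raw read counts per gene, 1 file per library. Named in the submitters' processing notes are HTSeq 0.6.1p2, STAR 2.6.0c, Trim Galore 0.5.0 with cutadapt 2.5, DESeq2, edgeR and the build GRCm38. Annotation and strand setting of the counting: not given in the sources used here. Whether reads of genes that overlap on opposite strands were told apart is therefore not known. The exons of 6 members overlap such a gene (Nfkb2, Nfkbib, Ikbkg, Il1b, Cxcl10 and Icam1). The 5 summary rows were left out. Reads without a feature were 11.15% to 17.02%, ambiguous reads 1.21% to 1.42% and multiply aligned reads 14.82% to 24.57% of those in the files, so values of paralogs are uncertain. Of 49652 gene rows, 49399 matched GENCODE M21 (GRCm38), which gave symbols, positions and exon lengths.

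KO was compared with WT over all 18832 genes that passed the package's filter, with edgeR 4.0.16 in R 4.3.3 (robust quasi-likelihood test, TMM scaling, no covariate, Benjamini-Hochberg, threshold 0.05). Log2 fold changes (KO minus WT) use a prior count of 0.125, and SE is the absolute log2 fold change over the square root of F. CPM are TMM-scaled, RPKM divide them by union exon length, and log2 CPM use a prior count of 2. DESeq2 1.42.0 and limma 3.58.1 (voom) were alternatives. Others were RLE scaling, no filter, a filter of 1 CPM in 3 libraries, protein-coding nuclear genes, a Y-linked covariate, a replicate block and each library left out. Summaries and figures were made in Python 3.11.15 (matplotlib 3.10.9, pandas 2.3.3). The scripts were tested on simulated data.

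Values in every library are given for the 16 tested members with the smallest p and the 8 with the highest RPKM, 19 in all. Ccl2, Ccl7 and members at a few counts were added after their values were seen. Of each further list, genes at the smallest p and the highest RPKM are named, and the 2 most abundant genes of each marker list. The members and lists were chosen with earlier results of these data known.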

Additional observations from a re-analysis of the deposited data

How the results depend on the processing

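No member was called under any of the alternatives run. Over all genes, DESeq2 called 20 and edgeR and limma voom called 0. The members' median log2 fold change was 0.18, between 0.08 and 0.24 under the other scalings, filters, tools and covariates, and 0.04 to 0.16 with 1 library left out. Genes at an unadjusted edgeR p under 0.05 numbered 393, with 864 without a filter, 245 among protein-coding nuclear genes, 597 with a Y-linked covariate and 324 to 818 with 1 library left out. Of the 30 tested members, 19 never reversed sign once values were rounded. That number counts Cxcl12, which fell just below 0 without WT replicate 3 and rounded to -0.0. Cxcl1 turned to 0.96 with limma voom, 0.24 with the Y-linked covariate and 0.87 with a replicate block. With 1 library left out, log2 fold changes ran from -0.96 to 2.48 for Cxcl1, -1.11 to 0.08 for Il1r1, -0.86 to 0.18 for Tnfrsf1b, -0.16 to 0.15 for Rela, -0.07 to 0.14 for Traf2, -0.22 to 0.16 for Relb, -0.05 to 0.47 for Nfkbie, -0.33 to 0.11 for Tnfaip3, -0.15 to 0.11 for Ikbkg, -0.10 to 0.43 for Cx3cl1 and -1.24 to 0.12 for Icam1. The members' median SD within a genotype was 0.50 and, in a comparison chosen after seeing the data, 0.36 without the library labelled WT replicate 2. The causes were not tested. The unadjusted p of Nfkbia was 0.00748 with the Y-linked covariate (log2 fold change 0.55, adjusted p 0.99986, edgeR). Whether replicate numbers pair the libraries was not settled: deviations of same-numbered libraries correlated at 0.245, 0.105 and -0.072. KO replicates 1 and 2 each correlated best with the WT library of their number. KO replicate 3 correlated best with the library labelled WT replicate 2, at 0.207. With a replicate block, 0 members were called, their median was 0.24, Cxcl1 stood at 0.87, and Nfkbia and Ccl11 had unadjusted edgeR p-values of 0.0414 and 0.0454. Il6 had at most 21 counts in a library and an SD within a genotype of 1.48 (peers 1.82). The abundant Cxcl1 had an SD of 1.96 (peers 0.22). The shares of depth and of spread between libraries in these uncertainties were not tested.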

Other observations

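The libraries at the ends of the range were unevenly shared out. WT replicate 3 was the lowest library for 11 of 30 tested members (36.7%), against 18.7% of all genes, and the highest for 1. WT replicate 1 was the highest for 10 members (33.3%), against 14.1% of all genes. Mean log2 CPM of the tested members was 3.72, 4.04 and 4.12 in KO and 3.84, 4.01 and 3.00 in WT.

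The inducible transcripts that failed the filter were concentrated in few libraries. All 71 Cxcl2 counts were in the library labelled WT replicate 2, and without a filter the gene had an unadjusted edgeR p of 0.0427 and an adjusted p of 0.854. Traf1 counts were 29, 1 and 0 in KO and 8, 56 and 0 in WT.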
